A study of Mus musculus with 14 samples.

Results

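Raloxifene and tamoxifen are selective estrogen receptor modulators, ligands that act as estrogen agonists in some tissues and as antagonists in others. Raloxifene is built on a benzothiophene and tamoxifen on a triphenylethylene. Their effects on mouse mammary gland RNA were compared here on 4 arrays, 2 with raloxifene and 2 with tamoxifen, out of the 14 arrays of the series. The arrays were chosen by compound alone: raloxifene and tamoxifen given without estradiol, and the same 2 compounds given together with 17b-estradiol (E2). Of the compounds tested, 1 pair was compared.

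Every group consisted of 8 female C57BL/6 mice, 11 to 12 weeks old at arrival, that had been ovariectomized 7 days before treatment and were killed 3 h after it. Vehicle, E2, acolbifene and fulvestrant, the last 2 also with E2 and both estrogen receptor antagonists, made up the other groups. All groups therefore lacked ovarian hormones, and none holds an animal with intact ovaries. The glands of a group were pooled, and 20 ug of total RNA went into the labelling reaction, so animal-to-animal spread is not measured. No source used here states the dose of raloxifene or of tamoxifen, so it cannot be said that they match. Tamoxifen was given as its citrate. Each of the 4 treatments has 1 array. Vehicle, E2, acolbifene and E2+acolbifene have 2 arrays each, nothing in the labels says that these came from separate pools, and p-values may therefore measure technical spread alone.

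Estrogen receptors are ligand-activated transcription factors. With a ligand bound they recruit coactivators or corepressors, and they act on DNA directly through estrogen response elements or indirectly through other factors such as AP-1. In the mammary gland estradiol acts through receptor-positive luminal cells, and the progesterone receptor and Greb1 are standard early target genes.

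All levels and differences are on the log2 scale, on which a difference of 1 is a doubling. The level of a probe set on the 4 arrays is given in the order raloxifene, E2+raloxifene, tamoxifen and E2+tamoxifen. The mean difference is the average of the raloxifene minus tamoxifen difference without E2 and the same difference with E2. Its standard error (SE) and adjusted p come from a limma fit of all 14 arrays unless another fit is named, with Benjamini-Hochberg adjustment over all 45037 probe sets and a threshold of 0.05. A single array is assumed in that fit to vary like the vehicle, acolbifene and E2+acolbifene pairs. The raloxifene, tamoxifen and fulvestrant arrays, with and without E2, and the first E2 array carry the same leading raw-file code. The vehicle, acolbifene, E2+acolbifene and second E2 arrays carry another. Treatment and code therefore cannot be told apart where levels are set against vehicle or acolbifene. The SE also rests on no array with the code of the 4 compared arrays, because the pairs behind it all carry the other. The E2 pair, which spans both codes and is not behind the SE, had 310 probe sets more than 1.5-fold apart. Those other pairs had 75 to 153.

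The tissue label was borne out by markers. Adipocyte Adipoq was at 13.70 to 13.96 and the luminal keratin Krt8 at 10.27 to 10.70 on the 4 arrays. Neither differed in the mean (Adipoq -0.03, 95% interval -0.23 to 0.17; Krt8 -0.01, -0.22 to 0.21). The 4 arrays correlated with each other at r of 0.995 to 0.997 over all probe sets. Of these 4, E2+tamoxifen had the narrowest spread of levels, with a standard deviation of 1.88 against 1.92 to 1.94 on the 3 others. With E2, probe sets with a mean level above 8.75 had a median raloxifene minus tamoxifen difference of 0.12, which became 0.01 when the 14 arrays were quantile normalized once more. The raw-file name of the raloxifene array shares its middle code with both E2+acolbifene arrays, and the meaning of that code is not stated. The raloxifene array correlated with those arrays at r of 0.9958 and 0.9955. Its r was higher with tamoxifen (0.9968) and E2+raloxifene (0.9967) and lower with E2+tamoxifen (0.9952). Whether labels were mixed up cannot be told from these values.

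The 4-array fit with E2 as a block, the design of this comparison, called 53 probe sets higher with raloxifene (0.118% of all tested) and 28 lower (0.0622%). These stand for 43 and 22 named genes. That fit has 1 residual degree of freedom and gave every probe set the same SE of 0.136, so its calls are the differences of at least 0.53. With 4 arrays no array could be left out, so this was done in a fit that also held both fulvestrant arrays, which called 3 higher and 0 lower with all 6 arrays. That fit called 1 higher and 0 lower without the tamoxifen array, 0 and 1 without E2+tamoxifen, 4 and 2 without E2+raloxifene, and 74 and 34 without raloxifene. The 14-array fit, with an SE for each probe set, called 19 higher (0.0422%) and 4 lower (0.00888%), all 23 of them among the 81. These stand for 17 higher and 2 lower named genes. Of the 81, 78 had the same sign with and without E2, and 65 had both raloxifene arrays on one side of both tamoxifen arrays. These probe sets were called on the size of the mean of the same differences. That choice favours both counts, so they are no separate support. Over all probe sets, 15.5% had both raloxifene arrays above both tamoxifen arrays and 13.0% had them below. The median difference over all probe sets was 0.00. For 98.8% of probe sets the 95% interval of the mean difference lay within a 1.5-fold change in either direction.

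The largest differences with raloxifene above tamoxifen were in a protease inhibitor, neutrophil-attracting chemokines and other inflammation-related genes. Serpinb2, which encodes plasminogen activator inhibitor 2, was at 7.67, 8.87, 6.49 and 6.37. Both raloxifene arrays were above both tamoxifen arrays, and the E2+raloxifene array was the highest. The mean difference was 1.84 (SE 0.12, adjusted p = 0.000499), or 3.59-fold. Cxcl5, a neutrophil-attracting CXC chemokine, was at 7.35, 7.72, 6.40 and 5.36, and E2+tamoxifen was the lowest of the 14 arrays. Raloxifene exceeded tamoxifen by 1.65 (SE 0.09, adjusted p = 0.000391), or 3.15-fold. Cxcl2, another chemokine of this class, was at 7.64, 7.66, 6.72 and 6.20, with the 2 raloxifene arrays almost equal. Its mean difference was 1.19 (SE 0.15, adjusted p = 0.0400). Cxcl3, its neighbour in the same chemokine cluster, was at 5.63, 5.54, 4.81 and 4.69 and did not pass (0.84, adjusted p = 0.0925). The tamoxifen mean lay under the 40 percentile of level (6.65) for all of Serpinb2, Cxcl5, Cxcl2 and Cxcl3, where RMA compresses differences.

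**Figure D1:**
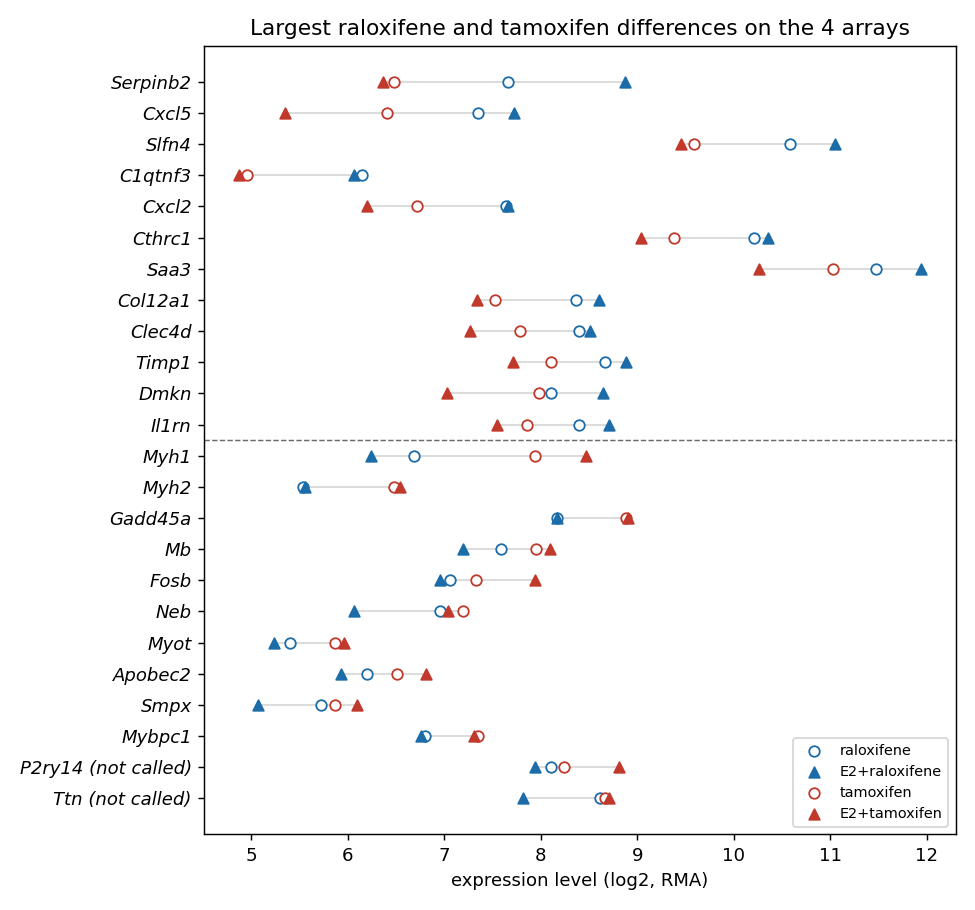
Expression level (log2, horizontal axis) of the 12 genes with the largest differences above the dashed line, raloxifene higher, and 12 below it, raloxifene lower, of which P2ry14 and Ttn were not called; each point is 1 array, open circles without E2 and filled triangles with E2, blue for raloxifene and red for tamoxifen. The 2 blue points of Serpinb2 lie at 7.67 and 8.87 and its red points at 6.49 and 6.37.

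Proximal promoters of 3 of these genes are shown as examples of sequence. Each gene was picked by hand together with the site marked in it, and Cxcl3 did not pass. Whether these genes moved together through such sites was not tested. They run from 250 bases before to 50 after the annotated start, taken from RefSeq (mouse assembly GRCm38.p6). Capitals mark matches to the NF-kappa-B site GGGANTTTCC in Cxcl2 (chr5:90903649-90903948, plus strand) and Cxcl3 (chr5:90785851-90786150, plus strand) and to the AP-1 site TGANTCA in Serpinb2 (chr1:107511173-107511472, plus strand). The first base of the match lies 97, 73 and 94 bases before the start.
Cxcl2: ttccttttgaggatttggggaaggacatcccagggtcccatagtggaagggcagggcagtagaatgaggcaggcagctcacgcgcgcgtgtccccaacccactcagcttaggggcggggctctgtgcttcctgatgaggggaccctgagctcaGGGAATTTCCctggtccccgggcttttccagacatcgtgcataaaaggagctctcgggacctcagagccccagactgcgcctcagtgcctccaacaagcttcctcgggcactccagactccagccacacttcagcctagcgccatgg
Cxcl3: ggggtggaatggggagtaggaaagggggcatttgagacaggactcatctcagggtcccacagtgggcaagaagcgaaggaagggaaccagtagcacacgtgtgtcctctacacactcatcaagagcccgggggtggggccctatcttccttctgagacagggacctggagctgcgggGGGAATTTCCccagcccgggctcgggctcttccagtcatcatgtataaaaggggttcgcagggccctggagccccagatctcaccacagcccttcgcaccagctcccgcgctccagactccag
Serpinb2: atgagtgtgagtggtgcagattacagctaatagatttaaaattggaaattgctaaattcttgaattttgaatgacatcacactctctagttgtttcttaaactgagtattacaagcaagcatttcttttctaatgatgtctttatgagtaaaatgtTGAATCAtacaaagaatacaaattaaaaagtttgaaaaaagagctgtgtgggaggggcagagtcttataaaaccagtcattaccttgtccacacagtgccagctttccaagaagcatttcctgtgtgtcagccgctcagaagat

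On both strands, the NF-kappa-B letters occur in 0.411% of the 32851 promoters of that table, the AP-1 letters in 7.81% and the estrogen response element letters GGTCANNNTGACC in 0.07%. Of the 12 genes named as higher with raloxifene, 9 have a promoter there. Of these, 1 (Cxcl2) held the NF-kappa-B letters, 4 (Dmkn, Il1rn, Serpinb2 and Slfn4) the AP-1 letters and 0 the estrogen response element. A gene was counted if any of its promoters matched, whereas the percentages are per promoter, so the 2 are not like for like. Of the 12 strongest E2 responders, 9 have a promoter there, and 2 held the AP-1 letters and 0 the others. A match is a description of the letters, and binding was not measured.

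Other inflammation-related genes passed in the same direction. Slfn4, a Schlafen gene expressed in myeloid cells, was at 10.59, 11.05, 9.59 and 9.46 and differed by 1.30 (SE 0.10, adjusted p = 0.00146). Saa3, an acute-phase serum amyloid made by fat and macrophages, was at 11.48, 11.94, 11.03 and 10.26. Its difference of 1.06 (SE 0.13, adjusted p = 0.0368) was mostly that of the E2 arrays, 1.68 against 0.45. Il1rn, the antagonist of the interleukin-1 receptor, was at 8.39, 8.71, 7.85 and 7.54 and differed by 0.85 (adjusted p = 0.0198). Its other probe sets gave 0.40 and 0.06 and did not pass. Clec4d, a C-type lectin of myeloid cells, was at 8.39, 8.51, 7.79 and 7.27 and differed by 0.92 (adjusted p = 0.0125). The complement receptor C3ar1 (0.66) and the membrane protein Ms4a6d (0.72) also passed, while a second probe set of each, at 0.55 and 0.54, did not. Il1b, the inducible cytokine interleukin-1 beta, was at 8.85, 8.55, 8.34 and 7.89. Both raloxifene arrays were the higher, and the difference of 0.59 had an interval of 0.20 to 0.98 (adjusted p = 0.779).

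The 29 measured genes of a chemokine and inflammation list had 7 members called higher by the 4-array fit, 3 of them also by the 14-array fit (Cxcl5, Cxcl2 and Saa3), and 0 called lower. The median of the list was 0.15. It was -0.06 without E2 and 0.26 with E2. The corresponding medians over all genes were 0.01, -0.02 and 0.04. Over all 18193 genes, each by its brightest probe set, the 4-array fit called 38 higher and 19 lower, and the 14-array fit 13 and 2. The 4-array calls in the list included the neutrophil alarmins S100a8 and S100a9. Both also belong to a list of neutrophil markers, whose 10 measured genes had a median of 0.01. Of these 10, 2 were called higher by the 4-array fit and 0 by the 14-array fit. With both raloxifene arrays above both tamoxifen arrays there were 3, and with both below 1. S100a8 was at 9.83, 9.65, 9.65 and 8.45, so only E2+tamoxifen stood apart.

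Several other genes that passed encode matrix or secreted proteins and their regulators, and they are placed together here after their values were seen. Cthrc1, a secreted collagen triple helix protein, was at 10.21, 10.36, 9.38 and 9.04, a mean difference of 1.07 (SE 0.09, adjusted p = 0.00261). Col12a1, a fibril-associated collagen, was at 8.37, 8.61, 7.53 and 7.35 and differed by 1.05 (adjusted p = 0.00730). A brighter Col12a1 probe set gave 0.44 and did not pass (adjusted p = 0.488). The matrix glycoprotein Tnc, tenascin C, was at 9.47, 9.63, 8.82 and 8.64 and differed by 0.82 (adjusted p = 0.0159). Mmp12, the macrophage metalloelastase, was at 8.80, 9.0, 8.21 and 8.00 and differed by 0.79 (adjusted p = 0.0198). Timp1, which inhibits metalloproteases, was at 8.67, 8.89, 8.10 and 7.71 and differed by 0.87 (adjusted p = 0.0363). An inhibitor and a protease thus both stood higher. The secreted C1qtnf3 was at 6.15, 6.07, 4.96 and 4.87, all dim, with the same difference without and with E2, 1.19 and 1.20 (mean adjusted p = 0.0198). The matricellular Ccn4 also passed (0.81, adjusted p = 0.0239).

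In a list of 21 measured matrix proteases and plasminogen genes, 2 passed both fits (Serpinb2 and Timp1), 13 had both raloxifene arrays above both tamoxifen arrays and 3 below. Over all 18193 genes, each by its brightest probe set, 3079 were apart with raloxifene above and 2162 with raloxifene below. The median of the protease list was 0.24. Plat, tissue plasminogen activator, was at 10.12, 10.26, 9.78 and 9.70 and did not pass (0.45, adjusted p = 0.214). Plau, urokinase, was at 5.99, 5.87, 6.15 and 6.28, dim on all 4 arrays and lower with raloxifene, and did not pass either (-0.28). These 2 activators, the known targets of the Serpinb2 product, thus lay apart in opposite directions.

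Markers of macrophages and fibroblasts were measured beside these genes. Their counts stand against 3079 of all 18193 genes with both raloxifene arrays above both tamoxifen arrays and 2162 with both below. Of 16 macrophage markers, 12 had both raloxifene arrays above both tamoxifen arrays and 0 below, and the median difference was 0.23. The median was 0.05 without E2 and 0.42 with E2, and 0.24 with E2 after the extra quantile normalization. The median level over the macrophage markers was 11.35, 11.44, 11.26 and 11.08, in the order raloxifene, E2+raloxifene, tamoxifen and E2+tamoxifen. Among them only Fcgr1, a high-affinity IgG receptor, was called, by the 4-array fit alone. The defining marker Adgre1 was at 10.61, 10.64, 10.59 and 10.03, so E2+tamoxifen was the low array. Of 17 fibroblast and matrix markers, each by its brightest probe set, 0 were called by either fit. In 9 both raloxifene arrays were above both tamoxifen arrays and in 0 below, with a median of 0.21. That median was 0.03 without E2 and 0.45 with E2, and 0.21 with E2 after the extra quantile normalization. Col1a1, the main collagen of connective tissue, was at 13.46, 13.68, 13.44 and 13.14. Interferon response genes gave 11 of 19 apart, a median of 0.18 and 0 calls, with 0.01 without E2 and 0.42 with E2. Between the 2 arrays of a group, the medians of the macrophage, fibroblast and interferon lists differed by at most 0.05, 0.08 and 0.21. In pooled bulk tissue fewer cells of a type and less RNA per cell cannot be told apart. The part of cell makeup or of the E2+tamoxifen array in the called differences was not tested.

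**Figure D2:**
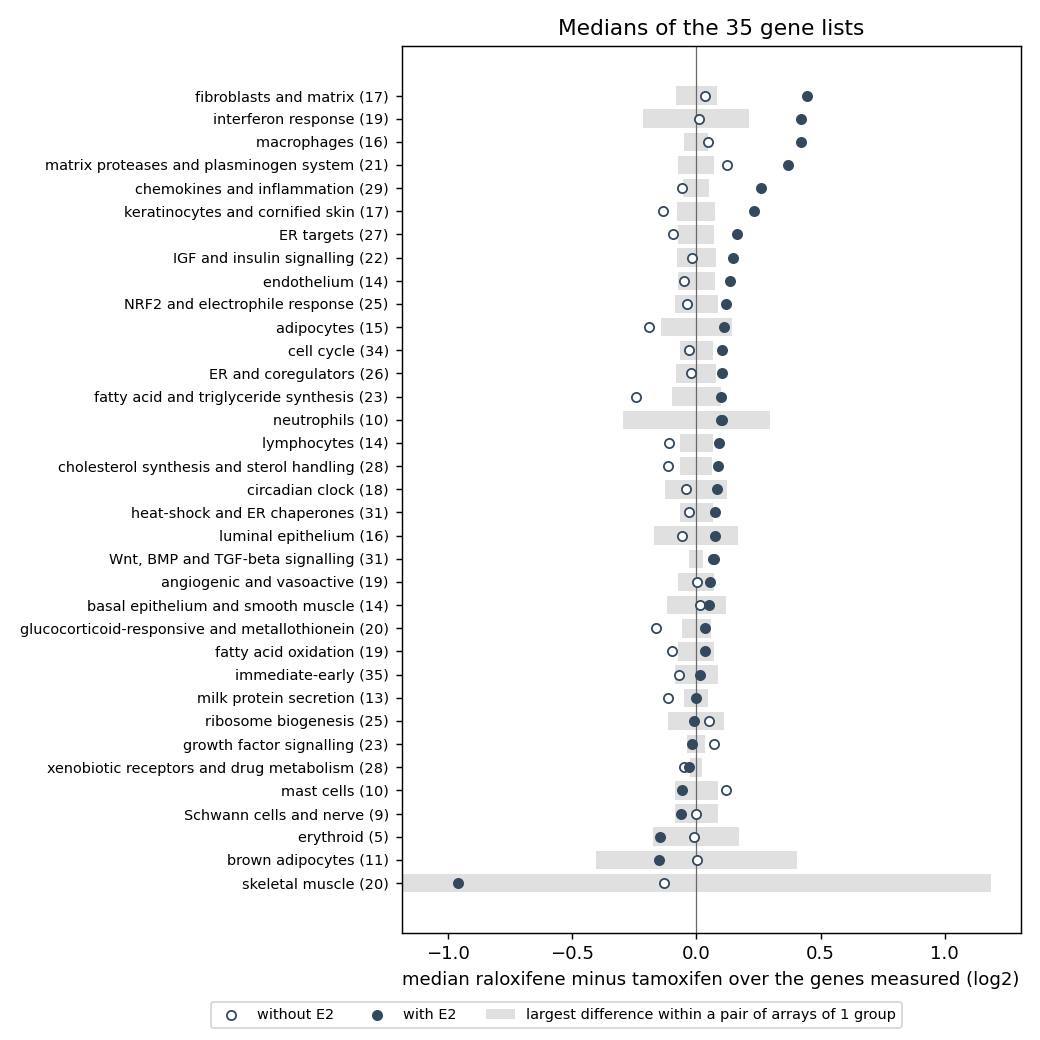
Median raloxifene minus tamoxifen difference (log2, horizontal axis) over the measured genes of each of 35 lists, open circles without E2 and filled circles with E2; grey bars show the largest difference of the same median between the 2 arrays of a replicated group. The macrophage median moves from 0.05 to 0.42, and the skeletal muscle bar is wider than either of its points.

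The levels of some of these genes on the other arrays are described here without a test, and the genes were picked after their values were seen. The vehicle, acolbifene and E2+acolbifene arrays carry the other leading raw-file code. Serpinb2 was at 8.88 and 8.85 on the acolbifene arrays, 7.45 on fulvestrant, 6.61 and 6.80 on vehicle, and 7.03 and 6.70 on E2. Adding E2 left it at 6.96 and 6.65 with acolbifene and 7.31 with fulvestrant, against 8.87 with raloxifene. Cxcl5 was at 7.74 and 7.56 on acolbifene and 7.59 on fulvestrant, and at 5.96, 6.00 and 6.38 when E2 was added to these. For Serpinb2 and Cxcl5 both tamoxifen arrays lay within or below the range of the vehicle and E2 arrays, and raloxifene stayed high with E2. That placing did not hold for Clec4d, at 7.79 with tamoxifen against 7.07 and 7.17 on vehicle and 7.48 and 7.45 on E2. Timp1 was at 8.84, 8.64 and 8.94 on acolbifene and fulvestrant and at 7.96, 7.81 and 7.92 with E2 added. Its vehicle arrays were at 7.96 and 8.14. Dmkn, a secreted protein of stratified epithelia, was arranged otherwise: 8.11, 8.64, 7.98 and 7.03, with vehicle at 7.73 and 7.87 and E2+fulvestrant at 8.63. It passed in the mean (0.86, adjusted p = 0.0198), with a difference of 0.12 without E2 and 1.61 with E2.

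**Figure D3:**
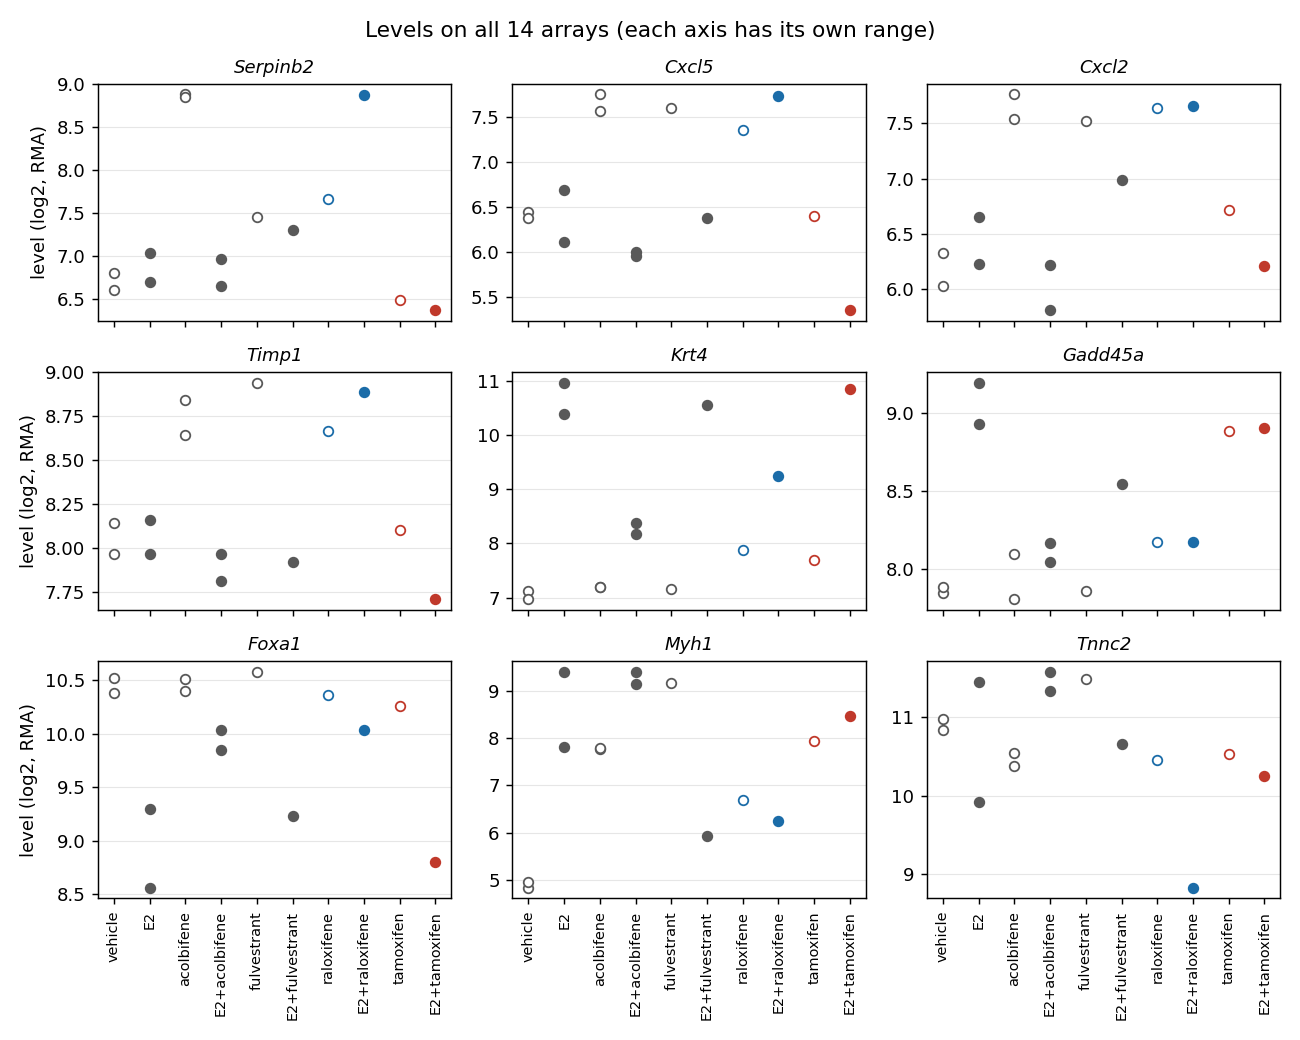
Expression level (log2, vertical axes, each with its own range) of 9 genes on all 14 arrays by group, each point 1 array, open without E2 and filled with E2, blue for raloxifene, red for tamoxifen and grey for the other groups. For Serpinb2 the E2+raloxifene array (8.87) lies with the 2 acolbifene arrays (8.88 and 8.85), and for Krt4 the E2+tamoxifen array (10.84) lies with the 2 E2 arrays (10.95 and 10.38).

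Genes lower with raloxifene were mostly those of skeletal muscle. Myh1, a fast myosin heavy chain, was at 6.68, 6.24, 7.94 and 8.47, and differed by -1.74 (SE 0.10, adjusted p = 0.000409). A second Myh1 probe set gave -1.67 (adjusted p = 0.000756) and the dim remaining one, at 5.41 on average, -0.02. Myh2, another fast isoform, was at 5.54, 5.55, 6.48 and 6.54 and differed by -0.96 (adjusted p = 0.0229). Mb (myoglobin), Neb (nebulin, of the thin filament), Myot (myotilin, of the Z-disc), Smpx, Apobec2 and Mybpc1, all expressed in muscle, were called by the 4-array fit alone, at -0.55 to -0.63. Ttn, titin, was not called on the named probe set (-0.47, adjusted p = 0.302 in the 14-array fit). Another of its probe sets, at -0.63, was called by the 4-array fit alone.

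Of the 20 skeletal muscle genes on the list, 10 were called lower by the 4-array fit and 2 by the 14-array fit, and 0 higher. Over all 18193 genes these fits called 19 and 2 lower. The median of the muscle list was -0.52, with -0.13 without E2 and -0.96 with E2, and E2+raloxifene was the low array. Tnnc2, fast troponin C, was at 10.45, 8.83, 10.53 and 10.24. The 2 arrays of E2 alone were at 9.92 and 11.44 for this gene, and over the whole list they differed by a median of 1.19. The list median between compounds is thus smaller than that between the 2 E2 arrays, which also differ in the raw-file code. The same median differed by 0.006, 0.06 and 0.09 within the vehicle, acolbifene and E2+acolbifene pairs. For Myh1 the E2 arrays were at 7.81 and 9.40, less far apart than the compounds with E2 (6.24 and 8.47). The fulvestrant and E2+fulvestrant arrays, which share the leading code of the compounds, were farther apart, at 9.15 and 5.94. Vehicle was at 4.84 and 4.95 and acolbifene at 7.77 and 7.80. Whether treatment or muscle content set these Myh1 levels was not tested. The E2 pair adds nothing to the SE of the 14-array fit, because it is the pair that carries the raw-file code, a term of the fit. How much muscle each pool held was not measured otherwise.

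Among named genes without muscle expression whose arrays did not overlap, Gadd45a and Fosb were called lower, by the 4-array fit alone. Gadd45a, a growth-arrest and DNA-damage-inducible gene, was at 8.17, 8.17, 8.88 and 8.91. The arrays of each compound were nearly equal and lay apart from the other, and the difference of -0.72 (SE 0.11) had an adjusted p of 0.0925. Its level was 7.85 and 7.88 on vehicle and 9.19 and 8.93 on E2, so tamoxifen alone lay near E2 and raloxifene with E2 nearer vehicle. The AP-1 factor Fosb was at 7.06, 6.96, 7.33 and 7.94 (-0.63, adjusted p = 0.356). In the list of 35 immediate-early genes only these 2 were called, with a median of -0.02. P2ry14, a receptor for UDP-sugars, was not called in the mean (-0.51, adjusted p = 0.140) and passed with E2, at 7.94 against 8.82 (-0.88, adjusted p = 0.0424).

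Without E2, raloxifene exceeded tamoxifen more than 1.5-fold for 61 probe sets (0.135%) and fell below it for 33 (0.0733%). The 14-array fit called 1 probe set (0.00222%), which carries no gene name here, and 1729 had an unadjusted p under 0.05. Serpinb2 (1.18, adjusted p = 0.176) and Slfn4 (1.00, adjusted p = 0.176) had the largest positive differences among brighter genes together with Aldh2. Myh1 (-1.25), a kappa light chain gene and Ighm had the largest negative ones. Ighm, the IgM heavy chain, was at 7.57 with raloxifene and 8.56 with tamoxifen, and higher still on fulvestrant (8.87). Its brightest probe set gave 12.91 and 13.32. None of these named genes passed without E2.

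With E2, 184 probe sets were more than 1.5-fold higher with raloxifene (0.409%) and 282 lower (0.626%). The 14-array fit called 22 higher (0.0488%) and 24 lower (0.0533%). Serpinb2 led with 2.50 (SE 0.17, adjusted p = 0.000768), or 5.68-fold, followed by Cxcl5 with 2.37 (adjusted p = 0.000351). Saa3, Dmkn and Slfn4 came next at 1.68, 1.61 and 1.60. Among the lower genes were 5 with muscle expression or estradiol induction: Myh1, Krt4, Tnnc2, Greb1 and Mybpc2. When the raw-file code was left out of the fit, the lower calls dropped to 4 and Myh1, Tnnc2 and Mybpc2 no longer passed (adjusted p = 0.184, 0.40 and 0.40).

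Krt4, a keratin of stratified and glandular epithelia that E2 raised in these glands, separated the compounds when E2 was present. It was at 9.24 with E2+raloxifene and 10.84 with E2+tamoxifen, a difference of -1.61 (SE 0.14, adjusted p = 0.00478). The E2 arrays were at 10.95 and 10.38 and the vehicle arrays at 7.11 and 6.97. Without E2 the compounds gave 7.87 and 7.69. The level with E2+tamoxifen was therefore within the E2 pair, and that with E2+raloxifene between vehicle and E2. E2+fulvestrant, at 10.55, was within the E2 pair too. A second Krt4 probe set also passed with E2 (-1.39, adjusted p = 0.0409).

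Greb1, an estrogen receptor cofactor and target, was at 5.92 with E2+raloxifene and 7.32 with E2+tamoxifen on a dim probe set (-1.40, adjusted p = 0.0212). E2 alone gave 6.94 and 7.02, E2+fulvestrant 7.00 and vehicle 5.38 and 5.42. Of the 3 other Greb1 probe sets, none of which passed with E2, 2 were also lower with raloxifene (-0.76 and -0.35) and the brightest gave 0.21. Foxa1, a pioneer factor for estrogen receptor binding, moved the other way. It was at 10.03 with E2+raloxifene and 8.80 with E2+tamoxifen, a difference of 1.23 (SE 0.14, adjusted p = 0.0196; 0.165 with the code left out). Its vehicle arrays were at 10.38 and 10.52 and its E2 arrays at 8.56 and 9.29, so E2 lowered it. E2+tamoxifen lay within the E2 pair, as did E2+fulvestrant at 9.23. Ccn1, an inducible matricellular gene, and Aqp5, a water channel of glandular epithelium, both raised by E2, were lower with E2+raloxifene by 0.88 (adjusted p = 0.0364) and 0.87 (adjusted p = 0.0448). Another Ccn1 probe set gave -0.81 and did not pass.

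Other genes of the estrogen receptor system did not pass the test. The receptor Esr1 was at 10.56, 10.51, 10.58 and 10.48, with a mean difference of 0.00 (95% interval -0.21 to 0.21). Esr2 gave 0.00 (-0.30 to 0.29). Pgr, the progesterone receptor, was at 9.41, 10.07, 9.57 and 10.59, with a mean difference of -0.34 (-0.72 to 0.04, adjusted p = 1.00). Both compounds alone gave more Pgr than vehicle (8.05 and 7.57) and fulvestrant (7.88). Of these, only the fulvestrant array shares their leading raw-file code. Of 27 measured estrogen receptor targets 0 were called in the mean by either fit, with a median of 0.02, and of 26 receptors and coregulators Foxa1 alone was called, by the 4-array fit. A p that misses the threshold does not show that the compounds act alike on these genes.

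**Figure D4:**
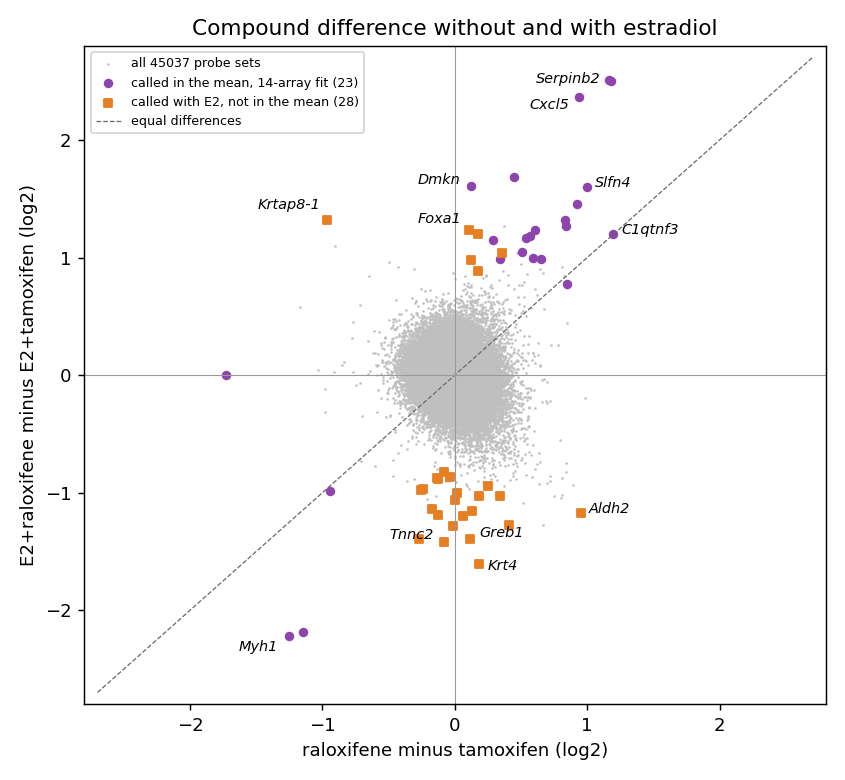
Raloxifene minus tamoxifen difference without E2 (horizontal axis, log2) against the same difference with E2 (vertical axis, log2) for all 45037 probe sets; purple points passed the 14-array fit in the mean of both (23), orange squares passed with E2 but not in the mean (28), and the dashed line marks equal differences. Serpinb2, Cxcl5 and Myh1 lie farthest from the centre, and Krt4, Tnnc2, Greb1 and Foxa1 lie near 0 on the horizontal axis.

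Whether the compound difference itself changed with E2 was tested as the difference of the 2 differences, and 1 probe set passed (0.00222%). Krtap8-1, a hair keratin-associated protein gene, was at 6.35, 8.06, 7.31 and 6.75, so raloxifene was the lower compound without E2 and the higher with it. The change was 2.28 (SE 0.20, adjusted p = 0.0375). Its 8 arrays of vehicle, E2, acolbifene and E2+acolbifene were at 6.53 to 6.92, while E2+fulvestrant was at 7.95. For Krt4 the change was -1.79 (adjusted p = 0.0766), for Dmkn 1.49, for Cxcl5 1.43 (both adjusted p = 0.0929) and for Serpinb2 1.32 (adjusted p = 0.192). A difference between the strata is therefore not shown for these genes. Aldh2, Cacng7 and Cryl1, which encode an aldehyde dehydrogenase, a calcium channel gamma subunit and a crystallin-related dehydrogenase, had the largest negative changes and did not pass. Aldh2 was at 10.21, 9.34, 9.25 and 10.51 on this probe set, with a difference with E2 that passed by itself (-1.17, adjusted p = 0.0448), whereas its brightest probe set gave differences of -0.04 without E2 and -0.01 with E2.

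To follow genes that respond to E2, 100 raised and 100 lowered genes were chosen on the vehicle, E2, acolbifene and E2+acolbifene arrays, none of which holds raloxifene or tamoxifen. Without E2 raloxifene was the higher for 53 of the 100 raised genes and the lower for 47 (median 0.02). With E2 raloxifene was the lower for 80 of 100, with a median of -0.26 and quartiles of -0.50 and -0.08. Of these genes 20 were more than 1.5-fold lower with E2+raloxifene and 0 more than 1.5-fold higher, and 7 passed the test, all lower. Genes with muscle expression were in this set. Myh1, Myh2, Mb and Smpx were among the 20, and Myh1 was also among the 7. With the 3 genes of the muscle list left out, raloxifene was the lower for 77 of 97. The median over all genes with E2 was 0.04. The median of these 100 genes differed between the 2 arrays of a replicated group by 0.05 (root mean square over 4 pairs). The 100 lowered genes had a median of 0.11 with E2, with raloxifene the higher for 68, and 0.01 without E2.

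Arranged the other way, the same arrays give the rise on adding E2. For the 100 raised genes its median was 0.21 under raloxifene and 0.53 under tamoxifen, and it was larger under tamoxifen for 78 of 100. The same median was 0.66 under fulvestrant and 0.14 under acolbifene. Without E2 these genes already stood above vehicle by a median of 0.34 with raloxifene and 0.36 with tamoxifen. With E2 they stood above vehicle by 0.59 and 0.85, against 1.03 for E2 alone. The vehicle arrays carry the other leading raw-file code, so treatment and code cannot be told apart in these heights above vehicle. The genes were also chosen for a large rise of E2 over the same vehicle arrays. That choice favours genes with low vehicle values, which raises every height, and 1.03 is the value of the choice itself. F3, tissue factor, which starts coagulation, was at 9.0, 9.79, 9.47 and 10.65, with vehicle at 8.43 and 8.48 and E2 at 10.93 and 10.52 (difference with E2 -0.86, adjusted p = 0.130). Acot1, an acyl-CoA thioesterase, was at 8.05, 9.24, 8.02 and 9.53, with E2 at 9.81 and 9.62, and the compounds differed by -0.30 with E2 (95% interval -0.70 to 0.11). Mmd2 was at 7.48, 7.93, 7.62 and 8.73, with E2 at 9.21 and 9.17. Plod2, a collagen lysyl hydroxylase, had the largest difference in the other direction among raised genes, 9.61 against 8.96 without E2, and did not pass.

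**Figure D5:**
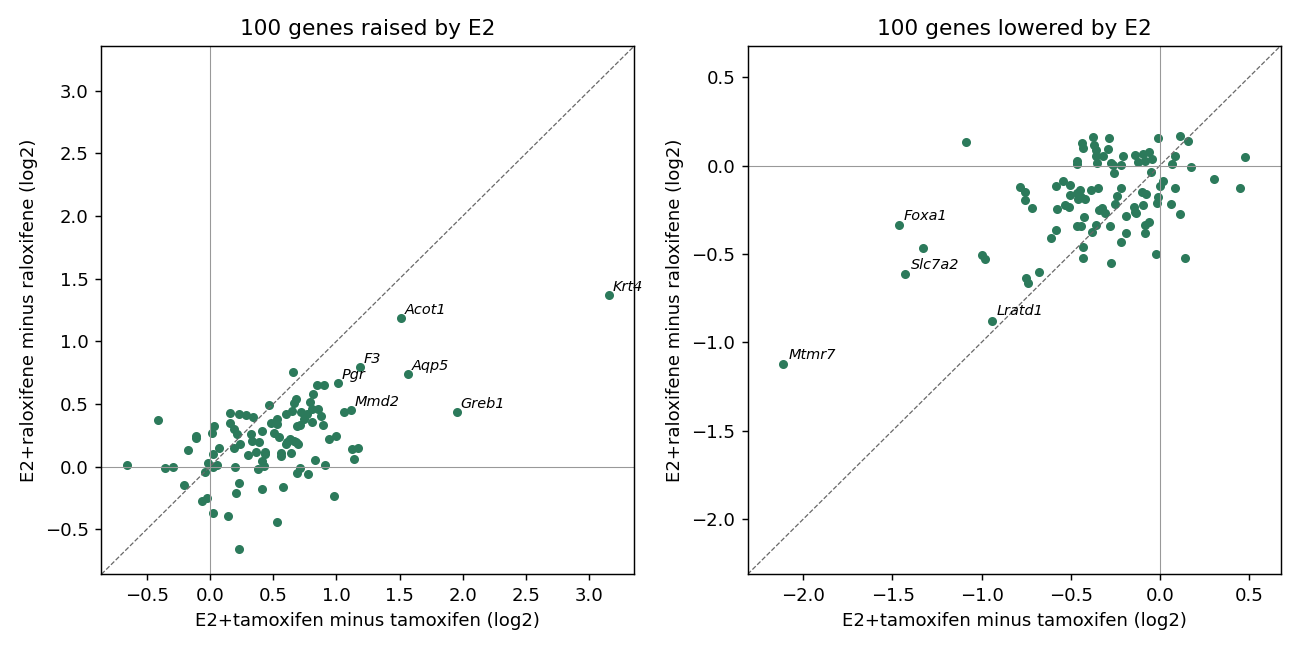
Change on adding E2 (log2) under tamoxifen (horizontal axis) and under raloxifene (vertical axis) for the 100 genes that E2 raised most (left) and the 100 it lowered most (right), each point 1 gene, with the dashed line marking equal changes. On the left 78 genes lie on the tamoxifen side of the line, with Krt4 and Greb1 far from it, and Acot1 lies close to it.

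Among lowered genes Foxa1, Gata3 and Tslp had the largest positive mean differences. Gata3, a luminal transcription factor, was at 8.18, 7.73, 7.72 and 7.29, apart in the same direction without and with E2 (0.46 and 0.44), and did not pass (adjusted p = 0.685). Tmprss2, a transmembrane protease, was at 9.72, 9.12, 9.91 and 9.23 and the difference of -0.15 had an interval of -0.35 to 0.05. Mtmr7, a phosphoinositide phosphatase gene and the one that E2 lowered most, was at 7.53, 6.41, 7.79 and 5.68, with E2 at 5.23 and 6.19. With E2 it did not pass (0.73, adjusted p = 0.183).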

How the data were processed

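The authors deposited log2 expression levels of 14 Affymetrix arrays, and the submitters' processing notes name RMA, whose version is not given in the sources used here. RMA normalizes quantiles between arrays and compresses weak signals. The design text names U74Av2 arrays, whereas the probe sets are those of another mouse platform for which the given probe annotation was made, which gave the names. After 64 control probe sets were left out, 45037 were tested; 34945 carried 1 symbol, 932 several and 9160 none, and the last 2 kinds were not named.

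The tests used lmFit and eBayes of limma 3.58.1, run under R 4.3.3. The 4-array fit had compound and E2 as terms; the 14-array fit had 10 group means and the leading raw-file code, which all 4 compared arrays share. The scripts were tested on simulated data. The genes named are the 12 called with the largest non-overlapping rise and the 12 with the largest fall, filled up above the median level where fewer were called; the 5 and 5 largest calls of each stratum, or the 3 and 3 largest; the 6 and 6 strongest E2 responders and the 3 each with the largest compound differences; and members of 35 lists (717 genes, 669 measured, each by its brightest probe set on average). Others were named after their values were seen: Tnc, Ccn4, Mmp12, Ms4a6d and C3ar1 complete the 14-array calls, and Ccn1 and Aqp5 are calls with E2 among the E2-raised genes. The genes and lists were chosen with earlier results of these data known. Alternatives covered the block, the arrays in the fit, the prior, the normalization, dim probe sets and each array left out (in the fit with fulvestrant); those added after seeing the data were quantile normalization for the E2-responsive genes and lists, and leaving out muscle genes.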

Additional observations from a re-analysis of the deposited data

Results flagged for a closer look

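Krtap8-1 was singled out because the raloxifene minus tamoxifen difference changed between the arrays without and with E2, by a test of that change itself. The change was 2.28 on the log2 scale (adjusted p = 0.0375 in the 14-array limma fit), from -0.96 without E2 to 1.32 with E2. Each of the 4 values comes from 1 array. The E2+fulvestrant array (7.95) was as high as the E2+raloxifene array (8.06), and the cause was not tested.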

How the results depend on the processing

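No paired analysis was possible because the labels give the raloxifene and tamoxifen arrays no replicate numbers; the E2 block of the 4-array fit pairs them by treatment instead. The 53 higher and 28 lower calls of the 4-array fit became 10 and 3 without the E2 block, 3 and 0 with the fulvestrant arrays added, 19 and 4 in the 14-array fit, and 10 and 3 after quantile normalization of the 4 arrays. Leaving out 1 array, in the 6-array fit with fulvestrant, gave 0 to 74 higher and 0 to 34 lower, so both choices differ from the 4-array fit.
Without E2, the 0 higher and 1 lower calls became 1 and 4 with the raw-file code left out, 22 and 31 with an intensity trend in the prior, 1 higher with dim probe sets removed and 0 lower after quantile normalization. With E2, the 22 higher calls became 698 with the trend and 52 without dim probe sets, and the 24 lower became 4 without the code, 232 with the trend and 39 without dim probe sets. The difference of differences (1 higher, 0 lower) gave 3 higher without the code, 553 and 208 with the trend, and 8 and 9 without dim probe sets. The cause was not tested. The median of the E2-raised genes with E2, -0.26, was -0.36 for 50 genes, -0.15 for 200 and, chosen after seeing the data, -0.33 after quantile normalization of the 14 arrays; in the mean of both it was -0.20 for 50 genes. For E2-lowered genes it was 0.020 with the second E2 array alone. In the 6-array fit without E2+tamoxifen, where the E2 term comes from raloxifene and fulvestrant, Apobec2 (0.067), Smpx (0.073) and Ttn (0.0054) had the other sign, with -1.26, -1.24 and -0.95 without tamoxifen as the other end of their ranges. Plod2 with E2 turned sign after quantile normalization (-0.034). Of the 12 alternatives, Cxcl2 was called in 10, Serpinb2 in 9, Slfn4 in 8, Myh1 in 7, Cxcl5 in 6 and Gadd45a in 5. With 1 array per treatment, the number of arrays limits the precision.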
